A study of Homo sapiens with 4 samples.

Results

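The genes examined were *JUP*, which encodes plakoglobin (gamma-catenin), and 9 genes that act with it or with its close relative beta-catenin: *CTNNB1*, *CTNNA1*, *CTNND1*, *APC*, *AXIN1*, *GSK3B*, *LEF1*, *TCF7* and *TCF7L2*. They were taken from the deposited table by gene symbol, and 9 of these 10 genes had values among the 23622 genes of the table. *LEF1* was not analysed here. The list was drawn up with the sh-IRF1 against sh-NC values of these genes in view, so their differences between the groups are a description. No p-value is printed for them, and "called", used of a member, says only on which side of the threshold its row of the fit across all genes fell.

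Plakoglobin and beta-catenin are armadillo-repeat proteins that link cadherins to the cytoskeleton at cell junctions, beta-catenin at adherens junctions and plakoglobin at both adherens junctions and desmosomes. The pool of beta-catenin outside junctions is held low by a destruction complex built on the scaffolds axin and APC, in which the kinase GSK3 marks beta-catenin for degradation. When a WNT ligand engages its Frizzled and LRP receptors, the complex is inhibited, and beta-catenin enters the nucleus and joins transcription factors of the TCF/LEF family at their target genes. In leukemia cells, which lack desmosomes, plakoglobin has been described downstream of leukemia fusion proteins and as a partner of TCF factors.

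RNA-seq was carried out in MV4-11, a human acute myeloid leukemia (AML) cell line, to ask which transcripts depend on the transcription factor IRF1. The control group was sh-NC, cells given a control short hairpin RNA, and the knockdown group was sh-IRF1, cells given a hairpin against *IRF1*, with 2 libraries each. The hairpins were delivered by lentivirus in the pLKO.1 vector with puromycin selection. The labels list the sh-NC cells as untreated and both groups as wild type in genotype, do not say whether the libraries of a group came from separate cultures, and do not give the hairpin used for each knockdown library. p-values therefore measure only the spread between these libraries, which may be technical. The libraries held between 17635908 and 18695337 reads. *IRF1* itself stood at 785 and 738 normalized counts in sh-NC and at 430 and 432 in sh-IRF1, 56.6% of control, and other genes cover 22.9% of its exonic bases. Of the marker lists checked, all 9 myeloid genes were detected, and their summed level ran from 36318 to 36329 in sh-NC and from 32679 to 32862 in sh-IRF1, with 3 of them higher and 5 lower (limma). They went both ways, with *LYZ* at 180% and *ITGAM* at 154% of control, and *FLT3* at 72.9%, *MPO* at 37.3% and *CD14* at 16.0%. The 4 B cell markers with values summed to between 101 and 130 in sh-NC and between 254 and 315 in sh-IRF1, of which 1 was called, *CD79A*, at 471% of control. The 2 erythroid markers with values summed to between 402 and 467 over the libraries, with *KLF1* lower, and those of T cells to at most 12.9. The part of these genes in the members' values was not tested. A normalized count is a gene's reads divided by the authors' size factor for that library. All log2 fold changes are sh-IRF1 over sh-NC computed after adding 1 to each normalized count, so differences in genes of few reads come out smaller than they are.

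The upstream sequences of *JUP*, *TCF7L2* and *AXIN1*, 3 of the members that were lower in sh-IRF1, are shown to place them in the genome. Each is 250 bases long and ends at the base before a transcription start, is written 5′ to 3′ on the strand of the gene, and carries matches to the motifs searched in capitals. *JUP* lies on the minus strand of chromosome 17 (hg38, chr17:41754604-41786931), and its sequence covers chr17:41786932-41787181, before the outermost start in GENCODE 44. *TCF7L2* is on the plus strand of chromosome 10 and *AXIN1* on the minus strand of chromosome 16, with sequences from the RefSeq promoter table (GRCh38.p14) at chr10:112949997-112950246 and chr16:352724-352973.
JUP: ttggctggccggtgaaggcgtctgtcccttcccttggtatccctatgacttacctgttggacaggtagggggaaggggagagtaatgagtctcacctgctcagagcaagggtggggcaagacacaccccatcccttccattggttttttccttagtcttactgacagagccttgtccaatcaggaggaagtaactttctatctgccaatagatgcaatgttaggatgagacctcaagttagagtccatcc
TCF7L2: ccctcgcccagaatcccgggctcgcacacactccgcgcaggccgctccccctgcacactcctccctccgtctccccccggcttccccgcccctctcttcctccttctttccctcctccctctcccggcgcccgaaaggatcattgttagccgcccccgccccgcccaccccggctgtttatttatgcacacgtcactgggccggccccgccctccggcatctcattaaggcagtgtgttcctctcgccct
AXIN1: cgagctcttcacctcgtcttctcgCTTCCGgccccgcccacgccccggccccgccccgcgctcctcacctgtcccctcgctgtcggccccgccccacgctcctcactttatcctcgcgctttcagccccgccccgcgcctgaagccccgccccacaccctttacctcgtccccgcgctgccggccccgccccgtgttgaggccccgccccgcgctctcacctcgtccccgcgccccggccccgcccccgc
None of these 3 stretches overlapped an exon of its own gene in GENCODE 44. The motifs searched on both strands were the core of the interferon-stimulated response element, which IRF factors bind, CTTTGAT (TCF/LEF), CACGTG (E-box), CGGAAG (ETS) and TGTGGT (RUNX), the last 2 added after other values had been seen, and no matches of different motifs overlapped. The *JUP* and *TCF7L2* sequences shown held 0 matches, and *AXIN1* held 1 ETS match 226 bases before the start. Over all 16 RefSeq windows of the 8 members with an entry, the IRF motif occurred in 1, an internal *CTNNA1* start, with TTTCATTTTC beginning 128 bases before it. The ETS motif occurred in 3 windows, those of *AXIN1*, of *TCF7* and of an internal *TCF7L2* start, there 104 bases before it. The TCF/LEF motif occurred in 2 overlapping windows of *CTNNA1*, which share the match, the E-box in 1 of *APC* and the RUNX motif in 1 of *CTNNA1*. The 2 RefSeq windows of *JUP*, which are not printed, held 0. Of all 34943 promoter windows of this length, 3.02% held the IRF motif, 2.27% the TCF/LEF motif, 6.32% the E-box, 16.4% the ETS motif and 11.0% the RUNX motif. These are matches of letters, and no binding was measured here.

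*JUP* was among the genes with the lowest log2 fold change of the 14120 genes tested, while *CTNNB1*, its paralog, differed little. *JUP* (ENSG00000173801) gave 48.2 and 49.3 normalized counts in sh-NC, against 3.98 and 0.937 in sh-IRF1, from 47, 48, 4 and 1 reads. Both sh-IRF1 libraries lay far below both sh-NC libraries and the groups did not overlap. The group means were 48.8 ± 0.770 and 2.46 ± 2.15 (SD, n = 2 each), so that the knockdown level was 5.04% of control. The log2 fold change was -4.00 (SE 0.624), the second lowest rank of 14120 genes tested. *JUP* was a low transcript in these cells to begin with, and its mean over the 4 libraries exceeded that of 14.9% of the genes tested. Pooled over the libraries of a group, 5 reads in sh-IRF1 stood against 95 in sh-NC, a 20.2-fold lower level. Its exact 95% interval of 8.36 to 63.7 covers counting error only. It allows neither for the spread between libraries nor for the choice of *JUP* on these values. Among the sh-IRF1 libraries, *JUP* was 12.3-fold lower than the sh-NC mean in replicate 1 and 52.0-fold lower in replicate 2. These folds come from 4 reads and 1 read, too few to show whether the sh-IRF1 libraries differed from each other. Without replicate 1 of sh-IRF1 the log2 fold change was -4.68 and without replicate 2 it was -3.32, and with either sh-NC library left out *JUP* no longer passed the filter on low values, which it had passed only through the sh-NC group. With a pseudocount of 5 in place of 1 it was -2.88. None of the exonic bases of *JUP* is shared with another gene. In bulk RNA, fewer cells carrying a transcript and less of it per cell cannot be told apart.

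**Figure D1:**
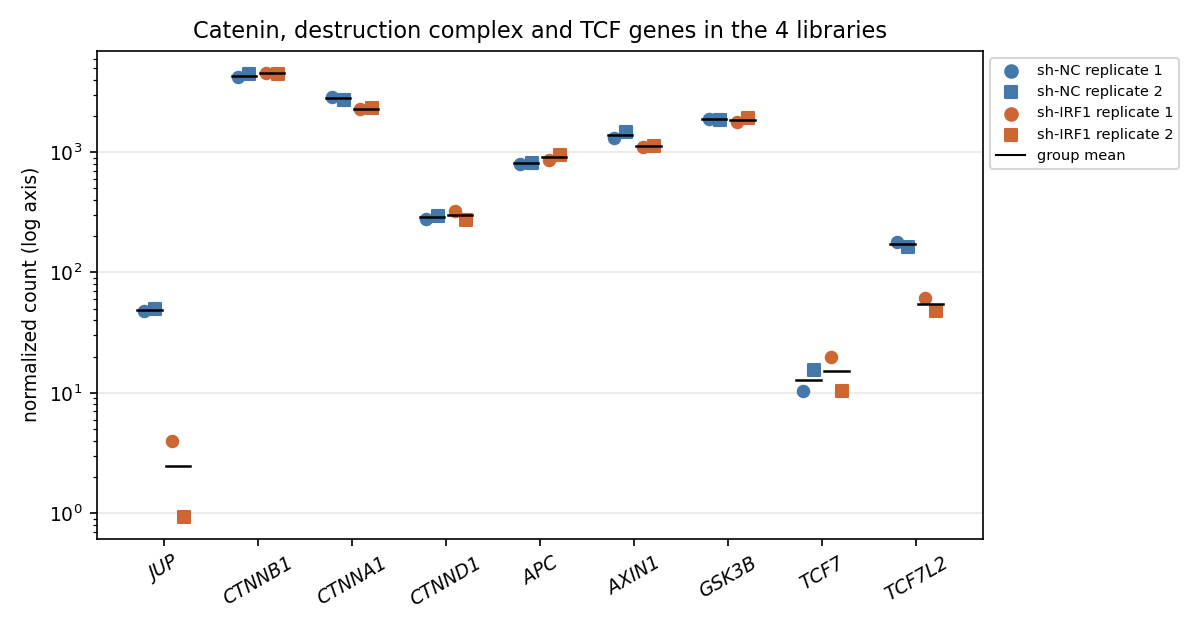
Normalized counts (log axis) of the 9 members with values, with the sh-NC libraries in blue and the sh-IRF1 libraries in orange, circles for replicate 1, squares for replicate 2, and a black line at each group mean. *JUP* and *TCF7L2* show wide gaps between the groups, from 48.2 and 49.3 to 3.98 and 0.937 for *JUP* and from 180 and 164 to 61.7 and 47.8 for *TCF7L2*. The other members lie closer to their control level, with *CTNNA1* (81.5%) and *AXIN1* (80.6%) the lowest of them.

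*CTNNB1* (ENSG00000168036), which encodes beta-catenin, was the most abundant member. It stood at 4210 and 4442 normalized counts in sh-NC and at 4557 and 4499 in sh-IRF1. Both sh-IRF1 libraries were above both sh-NC libraries, by a log2 fold change of 0.07 (SE 0.0388), or 105% of control, and it was not called. *CTNNA1*, encoding the alpha-catenin that ties the cadherin and beta-catenin complex to actin, was at 2889 and 2736 in sh-NC and at 2272 and 2312 in sh-IRF1. Its groups did not overlap and it was lower, with a log2 fold change of -0.29 (SE 0.0469), or 81.5% of control. *CTNND1*, encoding p120-catenin, which holds cadherins at the membrane, was at 278 and 296 in sh-NC and at 324 and 275 in sh-IRF1. These groups overlapped, and other annotated genes cover 39.1% of its exonic bases, so part of its reads may not be its own.

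Per kilobase of annotated exon, *JUP* made up 2.65% and 2.57% of the sum of *JUP* and *CTNNB1* in the sh-NC libraries and 0.207% and 0.0495% in the sh-IRF1 libraries. The groups did not overlap, with means of 2.61% ± 0.0565 and 0.128% ± 0.112 (SD, n = 2 each). The summed level of the 4 catenins per kilobase went from 715 ± 2.76 with the control hairpin to 665 ± 3.03 with the knockdown (SD, n = 2 each), 93.0% of control. Within this sum the share of *CTNNB1* was 51.4% in sh-NC and 57.9% in sh-IRF1, that of *CTNNA1* was 44.5% and 39.0%, and that of *CTNND1* was 2.64% and 2.96%. *JUP* held 1.38% of the sum in sh-NC and 0.0747% in sh-IRF1. *CTNNA1*, with 319 per kilobase in sh-NC and 260 in sh-IRF1, differed by more than the whole control level of *JUP*, 9.87 per kilobase.

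Of the destruction complex, the scaffold *AXIN1* was lower in the sh-IRF1 libraries, and *APC* and *GSK3B* were not called. *AXIN1* stood at 1316 and 1461 normalized counts in sh-NC and at 1103 and 1136 in sh-IRF1. The groups did not overlap, and its log2 fold change was -0.31 (SE 0.0644), or 80.6% of control. *APC*, the other scaffold, was at 796 and 817 in sh-NC and at 868 and 939 in sh-IRF1, with both sh-IRF1 libraries the higher and a log2 fold change of 0.16 (SE 0.0751). *GSK3B*, the kinase, was at 1888 and 1868 in sh-NC and at 1793 and 1941 in sh-IRF1, overlapping groups with a log2 fold change of -0.01 (SE 0.0535). Under total-count scaling of the reads, in place of the authors' size factors, *CTNNB1* and *APC* were both called higher, and no member was called higher under the deposited scaling.

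The paralogs of the destruction complex genes were set beside them. *AXIN2*, a scaffold that is itself a widely used target gene of the pathway, was at 21.5 and 25.7 in sh-NC and at 16.9 and 19.7 in sh-IRF1, with limma's adjusted p = 0.572, and other genes cover 25.3% of its exonic bases. Per kilobase, *AXIN1* held 97.6% of the sum of both axins in sh-NC and 97.7% in sh-IRF1. *APC2* had a log2 fold change of 0.16 (SE 0.0894, limma's adjusted p = 0.164), and the share of *APC* in the sum of both was 57.1% in sh-NC and 57.2% in sh-IRF1. *GSK3A* was higher in sh-IRF1, at 2299 and 2166 in sh-NC against 2498 and 2706, with a log2 fold change of 0.22 (SE 0.0494, limma's adjusted p = 0.00026). The share of *GSK3B* in the sum of both kinases was 21.4% ± 0.579 with the control hairpin and 18.8% ± 0.0089 with the knockdown (SD, n = 2 each).

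The TCF factors, which carry beta-catenin to DNA, were led by *TCF7L2* in these cells. *TCF7L2* (ENSG00000148737) stood at 180 and 164 normalized counts in sh-NC and at 61.7 and 47.8 in sh-IRF1. The groups did not overlap, and the mean of the sh-IRF1 libraries was 3.14-fold lower, 31.8% of control. Its log2 fold change of -1.64 (SE 0.216) ranked 120 from the lowest of 14120 genes, and lay between -1.82 and -1.46 with any 1 library left out. *TCF7* was scarce, at 10.3 and 15.4 in sh-NC and at 19.9 and 10.3 in sh-IRF1, and its groups overlapped. *TCF7L1*, which is no member, was as scarce, at 11.3 and 13.4 in sh-NC and at 22.9 and 13.1 in sh-IRF1, with a log2 fold change of 0.47 (SE 0.544, limma's adjusted p = 0.525). Per kilobase, the sum of the 3 factors was 29.6 ± 0.902 with the control hairpin and 13.7 ± 3.69 with the knockdown (SD, n = 2 each), 46.3% of control, and *TCF7L2* made up 86.3% ± 2.76 and 60.1% ± 5.55 of it. The share of *TCF7L1* was 9.42% with the control hairpin and 29.2% with the knockdown, and that of *TCF7* was 4.32% and 10.7%, shares that rest on few reads in genes whose own groups overlapped.

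**Figure D2:**
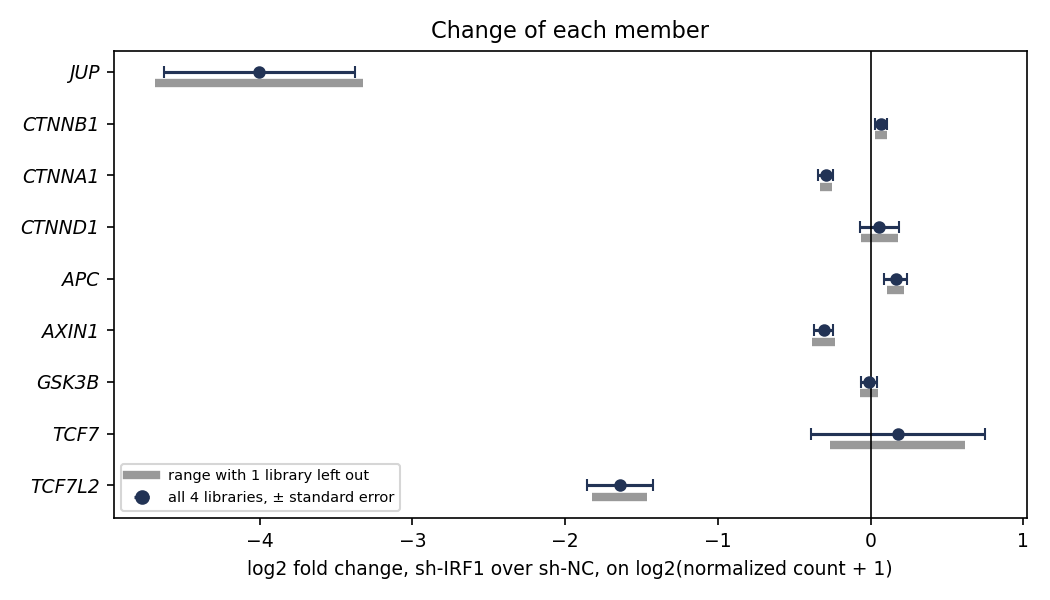
Log2 fold change (sh-IRF1 over sh-NC, on log2 of the normalized count plus 1) of each member, with points for the fit on 4 libraries, bars for the standard error, and gray bands for the range with 1 library left out. *JUP* (-4.00) and *TCF7L2* (-1.64) lie far from 0, *CTNNA1* and *AXIN1* lie near -0.3, and the band of *JUP* rests on leaving out an sh-IRF1 library, since it was not tested with an sh-NC library left out.

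As a description of members chosen on this comparison, 4 of those with values were called lower at an adjusted p under 0.05 (*JUP*, which passed the filter only through sh-NC, *CTNNA1*, *AXIN1* and *TCF7L2*), 0 were called higher and 5 were not called. Among all 14120 genes tested, 21.9% were called lower, 20.3% higher and 42.2% in either direction. With a log2 fold change beyond 0.5 as well, 2 members were called lower, *JUP* and *TCF7L2*, and 0 higher, against 7.56% of all genes called lower and 8.27% called higher, 15.8% in all. The groups did not overlap for 6 members, and for 69.2% of all genes. The median log2 fold change was -0.0096 over the members and -0.0019 over all genes. Nothing is read from these counts.

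**Figure D3:**
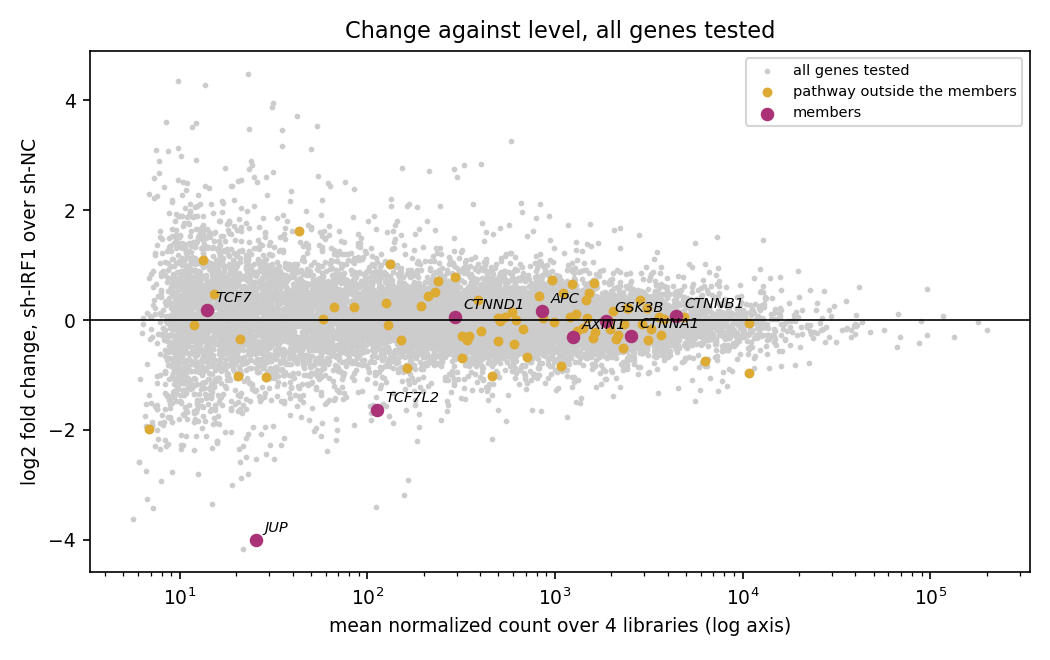
Log2 fold change (sh-IRF1 over sh-NC) against the mean normalized count over the 4 libraries (log axis) for the 14120 genes tested (gray), with members in purple and the other pathway genes in yellow. *JUP*, at -4.00, lies at the lower edge of the gray cloud among genes of low level, and *TCF7L2* lies below most genes of its level. The other members lie nearer to 0, with *CTNNA1* at -0.29 and *AXIN1* at -0.31.

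The members were also ranked within a group by level per kilobase of exon. The length used was that of all annotated exons of a gene, not of the transcripts present, so the order depends on it. In sh-NC the order from the top was *CTNNB1* (368), *CTNNA1* (319), *AXIN1* (184), *GSK3B* (105), *APC* (59.2), *TCF7L2* (25.5), *CTNND1* (18.9), *JUP* (9.87) and *TCF7* (1.27), and no neighbours in this order overlapped between their libraries. In sh-IRF1 the upper 5 kept their places. Below them, *TCF7L2* (8.12) fell behind *CTNND1* (19.7), and *JUP* (0.497) fell behind *TCF7* to the last place, again with no overlap between neighbours. Without length scaling, *CTNND1* (mean 287) was already above *TCF7L2* (mean 172) in sh-NC, and other genes cover 39.1% of the exonic bases of *CTNND1*. The order of *JUP* and *TCF7* in sh-IRF1 rests on 4 and 1 reads against 20 and 11.

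The rest of the pathway, 143 genes in 9 lists written by role, showed calls in both directions. Values were at hand for 96 of them, 21 did not pass the filter on low values, and of the 75 tested, 19 were higher in sh-IRF1, 23 were lower and 33 were not called. That is 56.0% called, against 42.2% of all genes, with a median log2 fold change of -0.01. With a fold change beyond 0.5 as well, 8 were higher and 9 lower. The 47 other genes of the lists were not analysed here.

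At the cell surface, 1 of 5 WNT ligands tested was lower and 0 were higher. The ligand called was *WNT6*, at 409 and 355 normalized counts in sh-NC and at 319 and 276 in sh-IRF1, a call that was lost without replicate 1 of sh-NC or replicate 2 of sh-IRF1. Of 2 genes of ligand secretion and agonists tested, 1 was higher and 0 were lower. The gene called was *PORCN*, the acyltransferase that lipidates WNT proteins before their secretion. *PORCN* rose from 79.0 and 94.5 to 166 and 186, a log2 fold change of 1.02 (SE 0.192, limma's adjusted p = 2.02e-05). *WLS*, the other, went the opposite way on few reads, from 10.3 and 12.3 to 3.98 and 0.937. It was not called, with a log2 fold change of -1.98 (SE 0.897, limma's adjusted p = 0.0715). Of 10 receptors and co-receptors, 2 were higher and 4 lower. The Frizzled receptors *FZD5* and *FZD1* were the higher, with log2 fold changes of 0.79 (SE 0.134) and 0.71 (SE 0.146). *RYK*, a kinase-like WNT receptor, and *LGR4*, a receptor for the R-spondin agonists, fell by 0.70 and 0.68 on the log2 scale (SE 0.124 and 0.0843). Of 4 inhibitors, *DKK2*, a secreted antagonist of the LRP co-receptors, was higher at 13.3 and 28.8 in sh-NC against 44.8 and 86.2 after knockdown, a call lost without replicate 2 of sh-IRF1. *KREMEN1*, a receptor for such antagonists, was lower by a log2 fold change of -0.28 (SE 0.0494).

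Inside the cell, 6 of 21 relay and destruction complex genes were higher and 5 were lower. *DVL2*, a Dishevelled protein that passes the signal from Frizzled, rose from 730 and 713 normalized counts to 1175 and 1230, a log2 fold change of 0.74 (SE 0.0715, limma's adjusted p = 4.91e-12). *CSNK1G1*, a membrane-bound casein kinase, had a log2 fold change of 0.43 (SE 0.0769). The Naked proteins, which bind Dishevelled, went opposite ways: *NKD2* fell from 7636 and 8089 to 4799 and 4571, a log2 fold change of -0.75 (SE 0.0362), and *NKD1* was at 187 and 189 against 258 and 280, a log2 fold change of 0.51 (SE 0.142), a call lost without replicate 2 of sh-IRF1. *CSNK1A1*, the kinase that primes beta-catenin for GSK3, was lower by a log2 fold change of -0.17 (SE 0.0429), and other genes cover 49.3% of its exonic bases.

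Among the nuclear partners of beta-catenin and TCF factors, 5 of 19 were higher and 6 lower. *PYGO2*, a coactivator, and *TLE4*, a Groucho corepressor that binds TCF factors, were higher, with log2 fold changes of 0.50 (SE 0.0664) and 0.48 (SE 0.0581). *TLE5*, a short relative of the Groucho proteins, fell from 621 and 612 normalized counts to 315 and 295, a log2 fold change of -1.01 (SE 0.103, limma's adjusted p = 1.98e-11). The corepressor *CTBP2* had a log2 fold change of -0.83 (SE 0.0691), and other genes cover 34.2% of its exonic bases. Of 10 target genes named for the pathway in other tissues, 2 were higher and 3 lower. *MYC* stood at 14198 and 14561 in sh-NC and at 7380 and 7348 in sh-IRF1, with a log2 change of -0.97 (SE 0.0297, limma's adjusted p = 1.03e-29). *CD44*, an adhesion receptor, had a log2 fold change of -0.28 (SE 0.0407), *SOX4*, a transcription factor, one of 0.68 (SE 0.0569), and *AXIN2* was not called.

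Junction genes bear on the other role of plakoglobin. Of 6 adherens junction partners tested, 3 were higher and 2 lower. *NECTIN1* and *VCL* (vinculin, which binds alpha-catenin) were higher, with log2 fold changes of 0.66 (SE 0.0646) and 0.37 (SE 0.0448), and *NECTIN2* and *CTNNAL1*, a relative of alpha-catenin, were lower, at -0.51 (SE 0.0483) and -0.87 (SE 0.171). Other genes cover between 10.8% and 16.4% of the exonic bases of *TLE5*, *VCL*, *PYGO2*, *GSK3A* and *CSNK1G1*. *ARVCF*, a p120-catenin relative, was not called, at 0.30 (SE 0.190, limma's adjusted p = 0.204). Of 14 desmosome genes listed, 5 had values and 1 passed the filter: the plakophilin *PKP4*, with a log2 fold change of -0.23 (SE 0.0569, limma's adjusted p = 0.00105), a call lost without replicate 1 of sh-IRF1. The epithelial markers with values, 4 of 8, summed to between 259 and 360 in sh-NC and between 395 and 414 in sh-IRF1. Of the 3 tested, *KRT8* was higher, at 146% of control (limma's adjusted p = 0.0111), while *KRT18*, at 113%, and *ESRP1* were not called (limma's adjusted p = 0.379 and 0.0585). *CLDN4* was not tested, with at most 3 reads in any library.

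**Figure D4:**
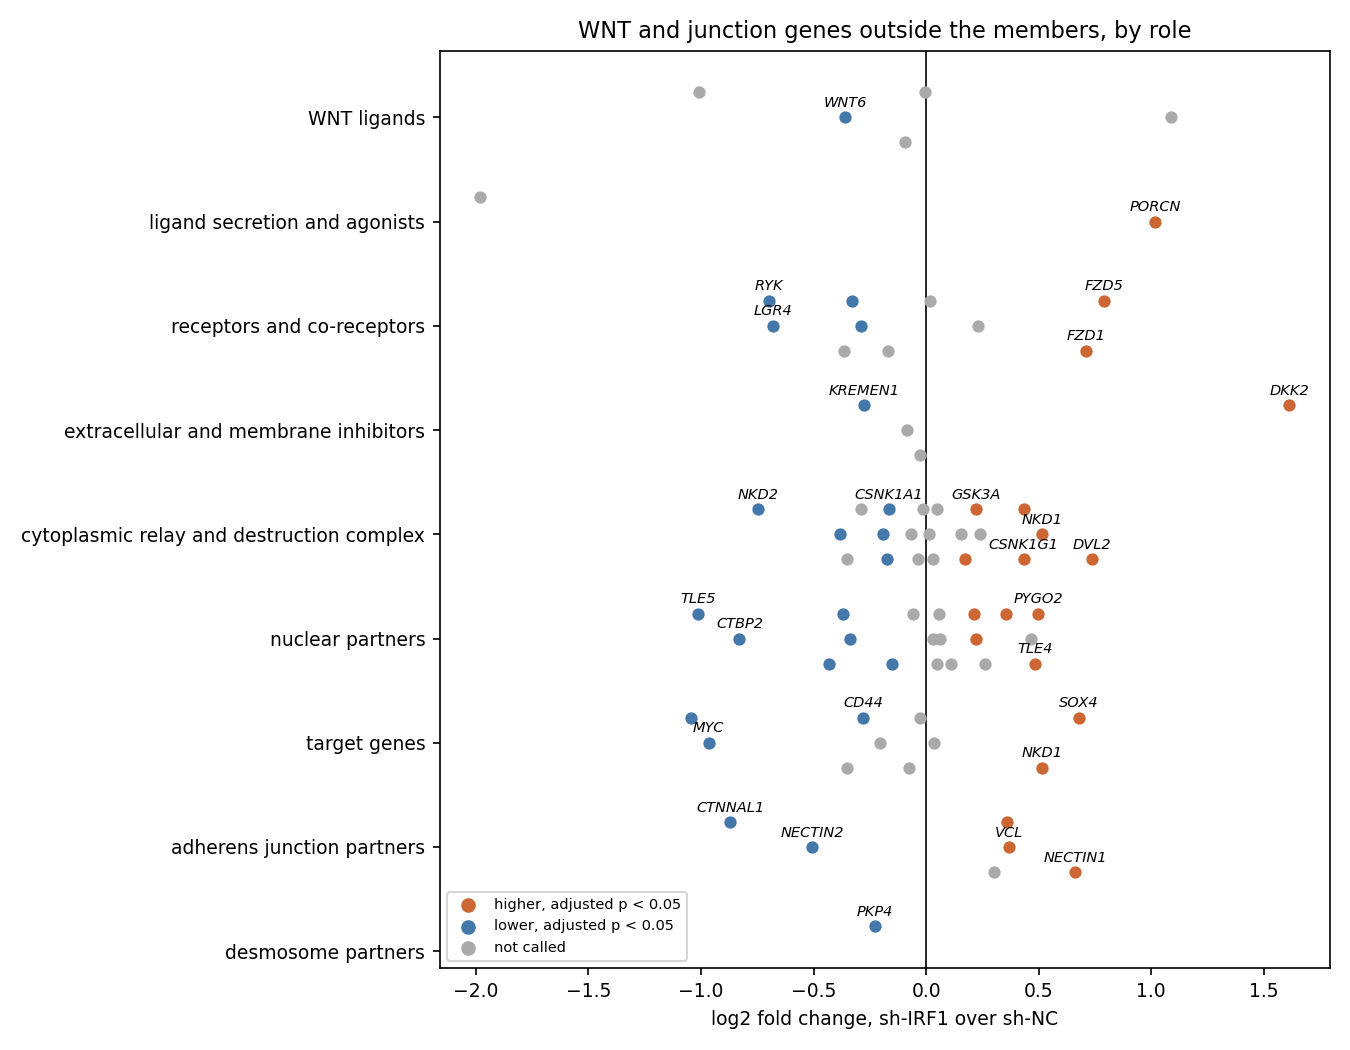
Log2 fold change (sh-IRF1 over sh-NC) of the 75 tested pathway genes outside the members, by role. Orange marks those called higher, blue those called lower and gray those not called (limma, Benjamini-Hochberg adjusted p under 0.05). Labels are given to called genes that the text names. Calls lie on both sides of 0 in most roles, and *DKK2* (1.61), *PORCN* (1.02) and *TLE5* (-1.01) are among those far from it.

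Of the 5 nearest tested genes on each side of *JUP* on chromosome 17, 1 was higher and 2 were lower, 3 of 10 called against 42.2% of all genes. The nearest, *P3H4*, whose start lies 25.7 kb from that of *JUP*, was at 227 and 213 normalized counts in sh-NC and at 222 and 215 in sh-IRF1. *NT5C3B*, at 49.3 kb, was at 102 and 93.5 against 68.6 and 65.6, and did not pass the test (limma's adjusted p = 0.0611). *EIF1*, a translation initiation factor at 98.0 kb, and *ACLY*, the ATP citrate lyase at 144 kb, fell by 0.40 and 0.24 on the log2 scale (SE 0.0331 and 0.032). The gene called higher was *CCR7*, a chemokine receptor at 1221 kb, with 2 and 2 reads in sh-NC and 27 and 19 in sh-IRF1, and without either sh-IRF1 library it no longer passed the filter. The other neighbours, *SMARCE1*, *KRT10-AS1*, *KRT10*, ENSG00000259623 and *KLHL11*, were not called and had log2 fold changes from -0.0025 to 0.45. *SMARCE1*, *KRT10-AS1* and *KRT10* start 1138, 968 and 964 kb from *JUP*, on the side of *CCR7*. *KRT10-AS1* and *KRT10* are antisense to each other by name, with the use of strand not known. ENSG00000259623 lies within the bounds of *KLHL11* on the same strand, so their reads may not be separate.

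The 5 genes whose profile over the 4 libraries was most like that of *JUP* were *MMP9*, *BPI*, *CLEC10A*, *SERPING1* and *MATN4*. Likeness was the Euclidean distance between log2 profiles centred on their mean, which was 0.612 for *MMP9*, 0.878 for *BPI*, 0.932 for *CLEC10A*, 1.06 for *SERPING1* and 1.19 for *MATN4*. *MMP9*, a secreted gelatinase, was at 209 and 193 normalized counts in sh-NC and at 28.8 and 11.2 in sh-IRF1. *CLEC10A*, a lectin receptor, was at 284 and 285 against 38.8 and 23.4. In both genes, as in *JUP*, replicate 2 of sh-IRF1 was the lowest library. They were picked for likeness to the profile of *JUP*, so this follows from the choice and is no separate result. *BPI*, *SERPING1* and *MATN4* had at most 16 reads in any sh-NC library and at most 3 in any sh-IRF1 library.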

How the data were processed

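RNA-seq of 2 sh-NC and 2 sh-IRF1 libraries of MV4-11 cells was analysed from 1 table of 23622 genes. The values the authors deposited are a normalized signal: each gene's reads over the size factor of its library. The submitters' processing notes name HISAT2 2.0.5 and hg38, while the counting tool, its gene models and its strand setting are not given in the sources used here. All values (100%) lay within 0.001 read of a whole multiple of their library's step, so the reads were recovered. There were 0 other columns of per-sample values.

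The main test was limma (3.58.1, R 4.3.3, variance trend, robust) on log2(value + 1) over the 14120 genes that reached 10 in 2 or more libraries, with Benjamini-Hochberg adjustment over all of them. limma's prior degrees of freedom were 43.0. With 2 libraries against 2, an exact permutation test cannot give a p below 0.333. edgeR (4.0.16) and DESeq2 (1.42.0) on the recovered reads, other scalings, filters and pseudocounts, a replicate block and leaving out each library were alternatives. The scripts were tested on simulated data. Across genes, the replicate differences of sh-NC and sh-IRF1 were close to uncorrelated (correlation of deviations -0.02). This does not settle whether the replicate numbers pair the libraries.

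Symbols matched 23456 identifiers. Positions, exon lengths and shared bases came from GENCODE 44 (hg38), promoters from RefSeq (GRCh38.p14), and *CTNND1* had no entry. Named outside the members were *IRF1*, the paralogs, the 2 genes of smallest p in each direction of each role list, the neighbours of *JUP* and the genes nearest to its profile. *WLS*, and *CLDN4* and the other cell type markers, were named after their values were seen. The members and lists were chosen with earlier results of these data known.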

Additional observations from a re-analysis of the deposited data

How the results depend on the processing

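Of the counts and levels that answer a comparison, 114 values under an alternative kept within their range of the reported value and 12 moved, with 0 reversed. The range let a count shift somewhat, held *JUP* and its share to their SD between libraries, and asked of *IRF1* only the same call. Fits in which *JUP* was not tested gave no value for its fold change and are not among these. Total-count scaling gave 2 members called higher (0 as reported) and 3 neighbours of *JUP* called higher (1 as reported), and it moved the median of all genes to 0.04. With a log2 fold change beyond 0.5, 2 members were lower (4 as reported), 8 other pathway genes were higher (19) and 9 lower (23), and 0 neighbours were lower (2). With a minimum of 30 normalized counts, 0 neighbours were called higher, and with 1 library left out this count lay between 0 and 2. The log2 fold change of *JUP* was -2.88 with a pseudocount of 5, where the pseudocount exceeds the sh-IRF1 level itself, and with no length scaling *JUP* made up 1.11% of the *JUP* and *CTNNB1* reads in sh-NC, in place of 2.61%. With the replicate number as a block, 6050 of all genes were called in place of 5953, and the members' count stayed at 4 lower and 0 higher. The numbers are not known to pair the libraries. edgeR called 6035 genes and DESeq2 4917, each with 4 members lower. *JUP* had 1 and 4 reads in the sh-IRF1 libraries, so its fold change is imprecise, and it could not be tested without an sh-NC library.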
